A study of Mus musculus with 17 samples.

Results

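To compare open chromatin between the sexes after cocaine, the autosomal peaks of 2 male and 6 female ATAC-seq libraries were set against each other. ATAC-seq uses a transposase to insert sequencing adapters into accessible DNA, and a peak is a stretch where insertions pile up over background. These 8 libraries, of 17 in the series, came from neuronal (NeuN+) nuclei sorted from the bilateral nucleus accumbens of C57BL/6 mice aged 52 to 54 days. All 8 came from mice that had received 10 mg/kg cocaine intraperitoneally 1 h before sacrifice. The females were in diestrus (3 libraries, numbered 1, 2 and 3) or proestrus (3 libraries, numbered 1, 2 and 4), and the males, which have no estrous cycle, gave 2 libraries. Each library pooled 3 animals, so n counts pools, and the p-values measure the spread between pools. Diestrus library 2 carried no stage label, so it was grouped by title. The other 9 libraries (3 each of male, diestrus and proestrus controls) came from mice of the same strain and age that received no cocaine. They were used as libraries that had no part in choosing the loci. The study took these controls as its baseline and describes no vehicle injection for them. Differences between treatments thus cannot separate cocaine from the injection and the 1 h that followed it. Peaks on the Y chromosome before 90 Mb numbered 5 to 16 in the male libraries and 0 in each of the 12 female libraries.

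Each library contributed the same number of its strongest peaks on chromosomes 1 to 19 and X, ranked by the −log10 p of the peak caller and set by the smallest library, male cocaine 2. Of these, the 73955 to 74532 per library on chromosomes 1 to 19 were kept, and overlapping peaks were merged into 127891 loci. A locus was male-only when both male and none of the 6 female libraries called it, and female-only when all 6 female and neither male library called it. By this rule 1966 loci (1.54%) were male-only and 1145 (0.895%) were female-only. The calls chose the loci, so the calls in these 8 libraries are a description and no locus was tested by them. A missing call does not show closed chromatin, and in pooled nuclei fewer cells with an open site cannot be told apart from a site that is less open in each cell.

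The nucleus accumbens is built mostly of medium spiny neurons, GABA-releasing cells that receive dopamine and glutamate, and cocaine raises dopamine there by blocking its reuptake. Dopamine and glutamate signals induce immediate-early genes within the hour, among them Fos and Jun, whose proteins pair to form AP-1. AP-1 binds the motif TGACTCA, which reads TGAGTCA on the opposite strand, mostly at enhancers away from gene starts. In the rodent estrous cycle, estrogen is low at diestrus and peaks around proestrus.

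The sequences around the summits of loci that the results turn on are shown from the mm10 (GRCm38) plus strand. Many female-only loci held an AP-1 motif near the summit. The motif is in capitals in the first 5 lines, of which the Creb5 line is not known to be a female-only locus. For Cmbl the bases before the annotated gene start are shown, and for Creb5 the motif with its flanks. The Creb5 line is labelled by its promoter call. Its motif lies inside the gene, which starts at chr6:53287270, and calls of that locus alone are not given. The strongest 2 male-only loci were simple repeats, shown next without capitals. The last pair belongs to a repeat family whose peaks were stronger in males, and capitals mark the 64 bp in which they are identical.
Female-only, intergenic near Shisal2b, chr13:104914247-104914447: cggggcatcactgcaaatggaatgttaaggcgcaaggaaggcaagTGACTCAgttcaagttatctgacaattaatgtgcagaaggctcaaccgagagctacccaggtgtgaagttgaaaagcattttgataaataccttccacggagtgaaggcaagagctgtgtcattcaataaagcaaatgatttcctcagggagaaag
Female-only, Kcnk2 intron, chr1:189266920-189267120: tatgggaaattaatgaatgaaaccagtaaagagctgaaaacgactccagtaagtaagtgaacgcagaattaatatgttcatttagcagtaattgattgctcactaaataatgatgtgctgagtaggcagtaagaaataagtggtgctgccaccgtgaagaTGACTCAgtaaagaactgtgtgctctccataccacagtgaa
Female-only, Syt1 intron, chr10:108821920-108822120: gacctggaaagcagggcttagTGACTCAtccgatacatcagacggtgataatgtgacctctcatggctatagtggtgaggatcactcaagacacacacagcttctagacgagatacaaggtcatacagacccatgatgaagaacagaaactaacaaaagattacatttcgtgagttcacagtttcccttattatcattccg
Female-only, Cmbl promoter, chr15:31565199-31565388: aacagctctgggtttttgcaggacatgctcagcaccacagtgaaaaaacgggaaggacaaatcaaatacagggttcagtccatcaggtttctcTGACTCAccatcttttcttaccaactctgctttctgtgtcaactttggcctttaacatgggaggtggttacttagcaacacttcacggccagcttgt
Female-only, Creb5 motif, chr6:53573318-53573346: tgggaaggataTGACTCActcaagctagt
Male-only, Cpeb4 intron, chr11:31922614-31922814: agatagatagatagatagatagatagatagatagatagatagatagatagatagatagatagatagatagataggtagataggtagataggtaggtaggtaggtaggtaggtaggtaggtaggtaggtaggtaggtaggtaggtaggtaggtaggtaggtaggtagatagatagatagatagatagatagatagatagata
Male-only, Pcca intron, chr14:122568919-122569119: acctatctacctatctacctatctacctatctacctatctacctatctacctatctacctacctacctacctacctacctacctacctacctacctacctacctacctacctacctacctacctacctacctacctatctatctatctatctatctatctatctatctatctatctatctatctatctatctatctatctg
Stronger in males, chromosome 11, chr11:114973424-114973624: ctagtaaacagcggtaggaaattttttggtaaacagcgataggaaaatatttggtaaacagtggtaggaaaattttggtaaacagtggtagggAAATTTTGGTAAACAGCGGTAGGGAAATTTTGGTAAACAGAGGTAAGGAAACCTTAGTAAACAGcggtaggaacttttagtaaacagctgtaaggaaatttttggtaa
Stronger in males, chromosome 10, chr10:124545103-124545303: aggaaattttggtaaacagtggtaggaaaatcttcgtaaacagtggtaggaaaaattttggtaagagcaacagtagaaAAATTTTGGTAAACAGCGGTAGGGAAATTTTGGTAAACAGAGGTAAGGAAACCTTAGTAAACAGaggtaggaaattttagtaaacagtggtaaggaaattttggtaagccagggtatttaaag

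The male cocaine libraries were the weakest of the 8. They held up to 87707 peaks on chromosomes 1 to 19 and X before ranking, and the female libraries 99789 to 157005. The background pileup, read from the steps of the fold enrichment and a measure of relative depth, was 7.60 and 8.15 in males and 6.95 to 8.99 in females. Because the same number of peaks was kept, the weakest kept peak had a fold enrichment over background of 2.21 and 2.62 in males and 2.76 to 3.32 in females. Median peak widths were 439 and 396 bp in males and 517 to 684 bp in females. The part of these differences in the loci described here was not tested. The Jaccard index of called loci (loci called by both libraries over loci called by either) was 0.612 between the 2 male libraries. It averaged 0.567 (0.529 to 0.602) over the 12 male-female pairs, 0.633 over the 9 diestrus-proestrus pairs and 0.632 over the 6 pairs of the same stage.

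Most loci were either shared by all libraries or called in a single library. All 8 libraries called 36255 loci (28.3%), 1 female library alone called 30215, and 1 male library alone called 15083. Just outside the male-only rule, 1012 loci were called in both males and 1 female library. Just outside the female-only rule, 1832 loci were called in 5 females and no male, and 2887 in all 6 females and 1 male.

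**Figure D1:**
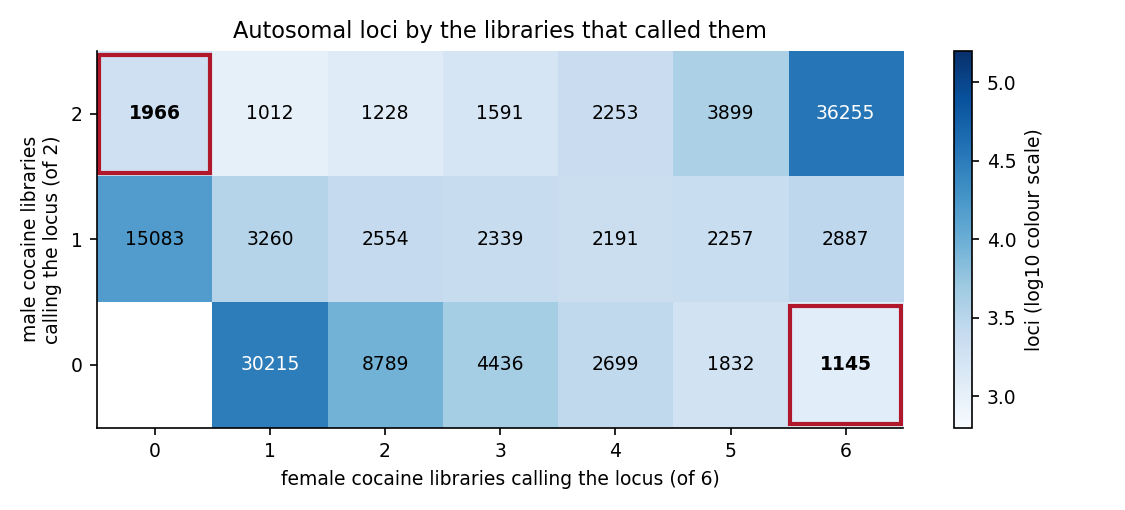
Number of autosomal loci by how many of the 6 female (horizontal axis) and 2 male (vertical axis) cocaine libraries called them, coloured on a log10 scale. The 1966 male-only and 1145 female-only loci are outlined, and the 36255 loci called in all 8 libraries are in the upper right corner.

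Male-only loci were AT-rich, far from gene starts and of low fold enrichment. The 201 bp around their summits had a mean GC content of 32.1%, against 44.97% over all loci, and 52.1% of them lay below 30% GC, where 8.93% of all loci lay. Their median distance to a protein-coding start site was 137946 bp (30493 bp over all loci), and 55.4% lay more than 100 kb from one (25.8% of all loci). Only 42 of the 1966 were at a promoter, within 1 kb of such a start site, 809 were intronic and 1031 intergenic. Their median fold enrichment was 2.95 in male library 1 and 3.02 in male library 2, below the median of 3.607 and 3.603 over all kept peaks of these libraries. In the full deposited lists, 1235 of them (62.8%) had no peak in any female library, and 731 had a female peak that was not kept. Such peaks, of either sex, are called weaker here, also where they tied with kept peaks at the rank limit and were dropped at random. Another random order of tied peaks gave 1973 male-only and 1136 female-only loci. Proestrus library 4 had such a weaker peak at 357 of the male-only loci, and diestrus library 3 at 85.

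Female-only loci were mostly intronic or intergenic, and 25.9% of them held an AP-1 motif. Their mean summit GC content was 42.9%, their median width 715 bp (559 bp over all loci), and their median distance to a start site 46766 bp. Of the 1145 loci, 593 were intronic, 480 intergenic, 44 exonic and 28 at promoters. Their median fold enrichment ran from 3.42 in proestrus library 2 to 4.28 in diestrus library 2, below the median over all kept peaks in each of these libraries (4.06 and 4.65) and in the other 4. Both sets were thus of lower fold enrichment than most kept peaks. In the full deposited lists 935 of them (81.7%) had no male peak, and 210 had a weaker peak in male library 1. Male library 2 set the rank limit with its whole list and so had no weaker peak to add.

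The AP-1 motif lay within 100 bp of the summit at 297 of the 1145 female-only loci, which is 25.9% (Wilson 95% interval 23.5 to 28.6%). It was present at 55 of the 1966 male-only loci (2.798%, interval 2.16 to 3.62%) and at 10.2% of all loci. These intervals cover counting error only. Among loci called in 6 libraries that were not all female it was present at 11.6% of 4510, and among loci called in 2 libraries that were not both male at 10.5% of 12049. In 6 bins of summit GC content, the share was 18.6 to 30.6% in female-only loci, 3.04 to 13.9% in all loci and 1.85 to 6.38% in male-only loci. The lowest bin, under 30% GC, held only 23 female-only loci.

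**Figure D2:**
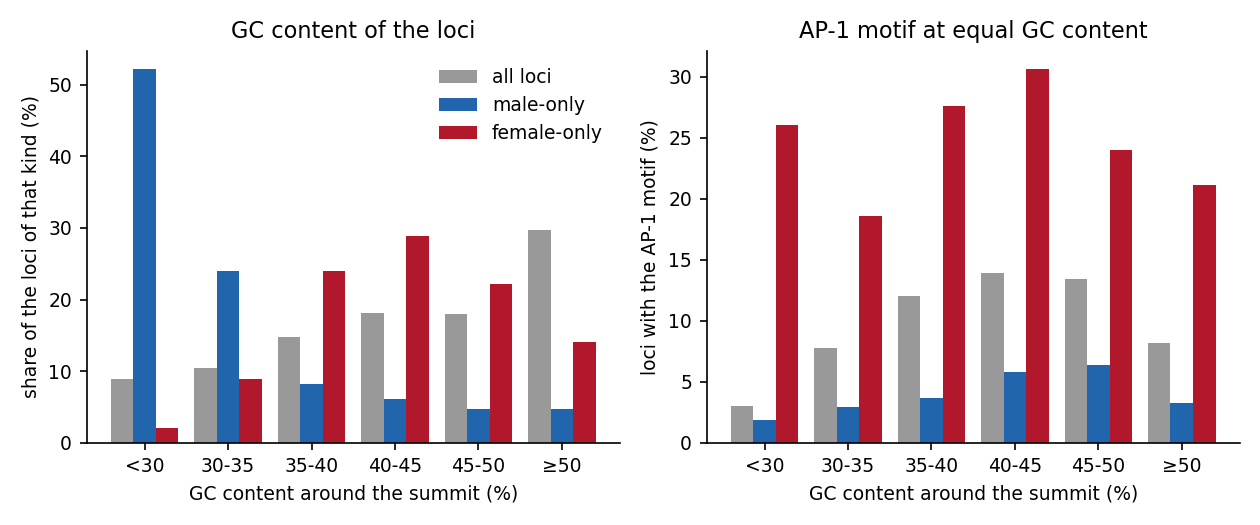
Left, percentage of all, male-only and female-only loci in bins of GC content (%) of the 201 bp around the summit. Right, percentage of the loci in each bin with the AP-1 motif: 52.1% of male-only loci lie below 30% GC, and female-only bars are higher than those of all loci in every bin.

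Other motifs separated the sets less or the other way. The homeobox core TAATTA was found at 16.99% of male-only, 12.6% of female-only and 8.79% of all loci. The E-box CAGCTG was found at 4.43% of male-only, 10.2% of female-only and 11.2% of all loci. The core motif of CTCF, bound by a factor that organizes chromatin loops, was found at 0 male-only loci, 8 female-only loci and 1.14% of all loci. The cAMP response element TGACGTCA was found at 0 male-only and 6 female-only loci (0.573% of all loci). Motifs were searched on both strands within 100 bp of the summit, and TAATTA favours AT-rich sequence by its letters. An absent motif says only that these letters were not in the window.

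The male-only loci with the highest ranks in their weaker library were first examined. The strongest, chr11:31922526-31922898 in an intron of Cpeb4, which encodes a regulator of mRNA translation, had fold enrichments of 6.67 and 6.74 in the males. The next, chr14:122568856-122569176 in an intron of Pcca, a subunit of a mitochondrial carboxylase, had 5.68 and 6.74. Neither had a female peak in any deposited list. Both are built from 4-base units: 96.95% of bases in the Cpeb4 window and 91.9% in the Pcca window equal the base 4 positions later, against 21.3 to 35.03% in the windows of the other 14 named loci. Longer repeat units are missed by this measure, and the window of the Itgb3bp locus named below is built from such a unit. The third, in an exon of Pfkp, a phosphofructokinase of glycolysis, had 5.90 and 4.30 in males and weaker peaks of 2.39 and 2.41 in diestrus libraries 2 and 3. The remaining 5 lay in introns of Itgb3bp and Efcab7 (which overlap), Nyap2, Syt14 and Stk32c and 528942 bp from Arid1b, a chromatin remodeller gene, with male fold enrichments between 4.07 and 4.59, and all except the Itgb3bp locus had a weaker female peak. At the Stk32c locus that peak, 3.02 in diestrus library 2, lay at the rank limit, where tied peaks were dropped at random. The Stk32c locus was called in 6 of 6 female controls, and the locus near Arid1b in 3 of 3 male and 1 female control.

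The female-only loci with the highest ranks were called in at least 3 controls each. The first, 229885 bp from Runx1t1, a transcriptional corepressor gene, had fold enrichments of 7.84, 6.41 and 4.48 in diestrus and 5.31, 4.71 and 5.34 in proestrus. Calls in controls were 6 of 6 in females and 1 of 3 in males. The locus near Shisal2b, chr13:104914103-104915239, whose AP-1 motif is shown above, had 5.70, 6.92 and 6.09 in diestrus and 5.91, 4.92 and 4.61 in proestrus. In controls, 5 of 6 female and 0 of 3 male libraries called it. The Kcnk2 intron locus, chr1:189266565-189267311, lies in a gene for a background potassium channel and also holds the motif. Its fold enrichments were 5.22, 4.78 and 4.13 in diestrus and 5.01, 5.13 and 4.71 in proestrus, and it was called in 3 of 3 male and 5 of 6 female controls. The loci in Plcxd3, a phospholipase-domain gene, and Zbtb20, a zinc finger repressor, were called in 6 of 6 female and 0 of 3 male controls. The locus in Insig2, a sterol sensor of the endoplasmic reticulum, was called in 3 of 3 male and 2 of 6 female controls. The other pair, 43660 bp from Cldn17 and 63271 bp from Rbm46, each had a peak of 2.62 in male library 1. The rank limit of that library fell at this value, and 4200 of 5632 tied peaks were kept in a random order. The female-only call of this pair thus rested on that order.

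To ask whether these loci also separated the sexes without cocaine, their calls were counted in the 9 control libraries by the same rank rule. Male-only loci were rarely called there: 7.68 to 8.19% of them in the 3 male controls and 3.61 to 6.66% in the 6 female controls, with 1557 of 1966 (79.2%) in no control, where 27.9% of all loci were in none. The mean difference between male and female controls was 3.20 percentage points. Female-only loci were called at 43.8 to 49.2% in male controls and 51.9 to 61.8% in female controls, a mean difference of -8.68 points, while all loci were called at 45.9 to 46.8% and 44.5 to 49.5%. Of the female-only loci 329 (28.7%) were called in all 3 male controls and 186 (16.2%) in all 6 female controls, against 37.8% and 30.8% of all loci. The control ranges of males and females did not overlap for either set. The female-only difference turned to 4.14 points when all deposited peaks were used and to 9.56 points at a −log10 q of at least 5. Without diestrus cocaine library 1 the female-only difference was -0.952 points, and the male-only difference was 1.92 points, and it was 1.41 points without male cocaine library 1. With AP-1, female-only loci were called at 35.02 to 37.4% in male and 40.7 to 56.9% in female controls.

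**Figure D3:**
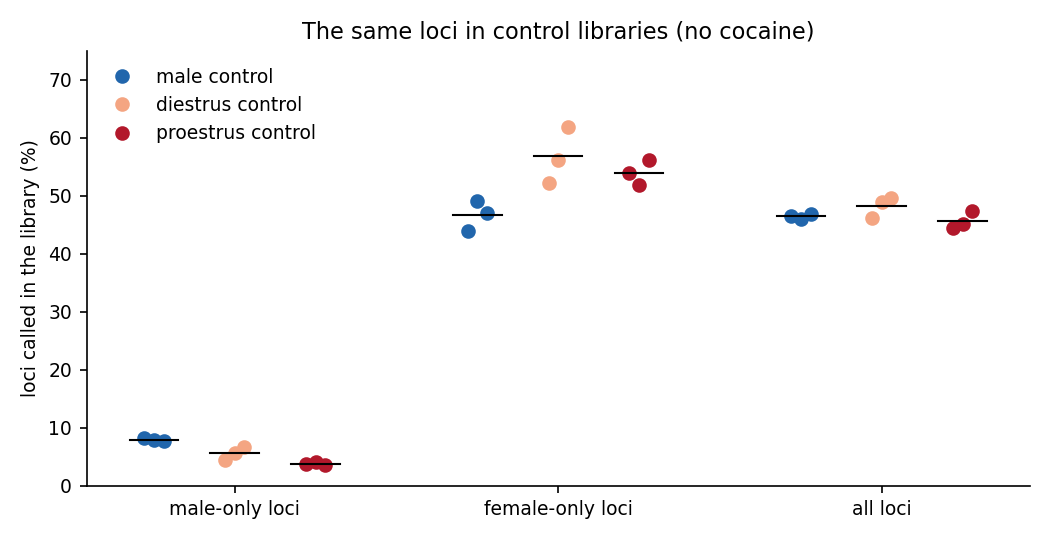
Percentage of male-only, female-only and all loci called in each control library, with 1 point per library and a line at the mean of each of the 3 control groups. Male-only loci lie between 3.61 and 8.19% in every control library, and female-only loci between 43.8 and 61.8%.

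Calls at a single locus could not decide whether the sexes differed in the controls. The smallest p that Fisher's exact test allows with 3 against 6 libraries is 0.0119, so a pass after adjustment needed many loci at that value. Of 25975 loci called in 3 to 6 of the 9 control libraries, 0 passed Fisher's exact test between male and female controls after Benjamini-Hochberg adjustment (smallest adjusted p 0.111). At an unadjusted p under 0.05, 14.1% were called more often and 7.77% more rarely in males. Among the 539 female-only loci in this range, 42 were called more often in males and 67 more rarely. Among the 159 male-only loci in this range, 49 had more male than female calls by this measure and 1 fewer. However, such a p can be reached for more male calls only at the low end of this range. For fewer male calls it can be reached only at the high end. These counts thus depend on how many controls called a locus, and no lean of either set is read from them. When the one-sided rule was applied to the controls themselves, 5716 loci were called in all 3 males and no female and 639 in the reverse pattern. With any 2 of the 3 male controls, which matches the numbers after cocaine, the counts were 6813 to 7598 and 914 to 1151. No test compared these counts with those after cocaine.

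By these one-sided calls, few promoters separated the sexes. Of 20722 protein-coding genes, 11401 had a promoter peak in all 8 libraries and 7606 in none. A promoter was called in both males and no female for 20 genes (0.0965%), and in all females and no male for 25 (0.121%).

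Among the 20 male-only promoters, 9 belonged to olfactory or vomeronasal receptor genes, which make up 7.02% of all genes. They included Vmn1r11, Olfr1205, Olfr1181 and Olfr1129, and the products of these families sense odours or pheromones in the nose. These families hold similar copies, so reads may be shared between members. The fold enrichment of Vmn1r11 was 3.17 and 3.25 in males, that of Olfr1205 was 3.39 and 3.14, and that of Olfr1181 was 3.28 and 2.91. No control library called these 3 promoters. Tied with Vmn1r11 for the highest rank was the promoter of Pik3c2g, a class II phosphoinositide 3-kinase, with 3.17 and 3.37 in males, no female peak and a call in 1 male control. The promoter of Sphkap, a protein kinase A anchoring protein, had 3.61 and 3.02 in males but also weaker peaks in 4 female libraries (2.804 to 3.09). Those in diestrus library 2 (3.02) and proestrus library 2 (2.89) lay at the rank limits of these libraries. The promoter of Bhlha15, a transcription factor gene of secretory cells, had 3.17 and 2.91 in males, and 3 of 6 female but 0 of 3 male controls called it. The other promoters named by rank were those of Gm13941, Igdcc4, an immunoglobulin superfamily gene, Tmem35b, Amy1, a salivary amylase gene, and Hspg2, which encodes perlecan of the basement membrane. In all, 12 of the 20 were called in no control and 10 had a weaker female peak.

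The 25 female-only promoters fell into 2 kinds. At 13 of them the locus itself was also called in males, and the closer male peak lay 1001 to 1203 bp from the start site, just past the 1 kb limit. The summit of the strongest female peak at these 13 also lay outside the 1 kb window, 1026 to 2209 bp from the nearest start site. Peaks that reached into the promoter window of Gdf9, a growth factor gene of the oocyte, were the strongest. Their fold enrichments were 76.5, 63.0 and 38.2 in diestrus and 46.2, 54.1 and 48.2 in proestrus, with the strongest summit 2184 bp away. The nearest male peaks lay 1200 and 1241 bp from the Gdf9 start site. Rap2b, a small GTPase of the Ras family, had 38.2 to 51.5 in females, and male peaks at 1033 and 1155 bp. Masp2, Mybph, Ccdc141, Rhoc, Lhcgr, which encodes the luteinizing hormone receptor, Gm5136, Ltc4s, Fhl5 and Lgr6 were of the same kind, as were Fam198b and Exoc3l. At Fhl5 and Fam198b only 1 male library called the locus. Median peak widths were smaller in males, as given above, and their part in these promoters was not tested.

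At the other 12 promoters, chosen for this after their values were seen, no male library called the locus. Creb5, which encodes a bZIP factor that binds cAMP response elements, had fold enrichments of 4.75, 3.52 and 2.87 in diestrus and 4.61, 5.24 and 3.25 in proestrus. The nearest male peak was at least 38686 bp away, yet all 3 male controls called the promoter (8.16, 8.26 and 7.24), and 4 of 6 female controls did. Cmbl, which encodes a hydrolase, had 3.80, 3.27 and 3.10 in diestrus and 3.20, 3.53 and 2.93 in proestrus, and was called in 2 of 3 male and 0 of 6 female controls. Gm4922 had 5.58, 5.41 and 5.51 in diestrus and 3.61, 3.42 and 3.56 in proestrus. Cmbl and Gm4922 hold the AP-1 motif, as do Tpm2, a tropomyosin gene, and Gm16223. For Creb5 the promoter call pooled 2 loci between chr6:53286897 and chr6:53573473, and the motif lies at the far end, inside the gene. Its fold enrichments and control calls were not separated between these loci. The promoters of Vwde, 2310030G06Rik, Col28a1, Fcgr3, an Fc receptor gene of immune cells, Tmem37, 9330159F19Rik and Slc39a2, a zinc transporter gene, made up the rest. Of all 25, 22 were called in at least 1 male control, and 6 were called in all 9 controls.

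Gene bodies held 927 male-only and 659 female-only loci, 1.17% and 0.828% of the 79551 loci inside protein-coding genes, and the genes with the most of them are named here by count, with no test. Dok6, which encodes an adaptor of receptor tyrosine kinases, held 11 male-only loci of 81 in all. Brinp3 held 9 of 58, Dcc 9 of 108, Erbb4 9 of 82 and Foxp2 9 of 90. Dcc is a netrin receptor in axon guidance, Erbb4 a neuregulin receptor, and Foxp2 a transcription factor of medium spiny neurons. Dach1, a transcriptional cofactor gene, held 8 of 59. Mean summit GC content of these loci ran from 27.9% in Dcc to 31.5% in Foxp2, and all fold enrichments lay between 2.44 and 4.04. In Erbb4 and Foxp2 none of the 18 loci had been called in any control library, although 6 of them had a weaker female peak. None of the 9 in Dcc had been called there either, and 79.2% of all male-only loci were in no control. Of all loci in Erbb4 and Foxp2, 4 and 8 were called in all 8 libraries.

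The genes with the most female-only loci were others. Syt1, the calcium sensor of synaptic vesicle release, held 6 of 228 loci (2.63%), and Itpr1, the inositol trisphosphate receptor of intracellular calcium stores, held 5 of 77. Pde4d, a cAMP phosphodiesterase gene, held 5 female-only and 3 male-only loci of 90. Anks1b, a postsynaptic scaffold gene, held 4 of 178 (2.25%), Meis2, a homeobox factor of striatal neurons, 4 of 72, and Phactr1, a regulator of protein phosphatase 1 and actin, 4 of 45. The 6 Syt1 loci had fold enrichments from 2.76 to 4.63 over the female libraries, and 1 of them holds the AP-1 motif shown above. At chr10:108821191-108822523, that locus had 4.63, 3.90 and 3.91 in diestrus and 3.20, 3.21 and 3.25 in proestrus. All 6 Syt1 loci were called in at least 1 control, as were all 5 in Itpr1 and 4 of the 5 in Pde4d. The highest values in these genes were those of a Pde4d intron locus, chr13:108622675-108623247, with 5.94, 4.91 and 4.59 in diestrus and 6.81, 4.17 and 4.61 in proestrus. It was called in all 3 male and all 6 female controls.

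Gene lists chosen for this tissue gave 0 promoters called on a single side. Of 38 immediate-early genes, 36 had a promoter peak in all 8 libraries and 2 in none. Their bodies held 95 loci, with 1 male-only locus, in Tiparp, and 1 female-only locus, in Nr4a2, an orphan nuclear receptor gene. Of 148 loci in dopamine signalling genes 0 were male-only and 2 female-only, in Rgs9, a regulator of G protein signalling in the striatum, and in Drd3, a dopamine receptor gene. Genes for medium spiny neuron peptides and identity factors held 515 loci, of which 11 (2.14%) were male-only, in 2 genes, 9 in Foxp2 and 2 in Mef2c. The same list held 10 female-only loci (1.94%) in 7 genes, 4 of them in Meis2 and 1 each in Mef2d, Rarb, Foxp1, Isl1, Bcl11b and Ebf1. Of 2138 loci in axon guidance and synaptic adhesion genes, 47 (2.20%) were male-only, 9 of them in Dcc, 5 in Unc5c and 5 in Cntnap2, and 22 (1.03%) were female-only, 3 of them in Nrxn3. Glutamate receptor genes held 12 (1.303%) and 6 (0.651%) of 921 loci, with 4 male-only loci in Grik2, and ion channel genes 16 (0.992%) and 10 (0.620%) of 1613, with 6 male-only loci in Kcnh7 and 3 female-only loci in Kcnq5. GABA genes held 4 male-only loci and 1 female-only locus of 424. Among genes of estrogen, progesterone, androgen and oxytocin signalling, a female-only locus lay in Ncoa1, a nuclear receptor coactivator gene, and a male-only locus in Pgr, the progesterone receptor gene. Stress hormone genes held 1 male-only locus of 84, in Nr3c2, and regulators of X inactivation and chromatin 3 of 284. These shares stand beside 1.17% and 0.828% over all gene bodies, and no list was tested. The genes that the study had named for cocaine held 1 male-only and 2 female-only loci of 160.

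Marker promoters were similar between the sexes. Promoters of the 20 medium spiny neuron genes were called for 17 or 18 in every library. Of 14 cortical excitatory neuron markers, 7 or 8 were called, and of 17 striatal interneuron markers 2 to 6. Of 13 microglia markers 1 to 3 were called, of 12 endothelial and mural markers 1 to 3, and of 11 astrocyte markers 3 to 6. Of 13 oligodendrocyte lineage markers, 3 and 4 were called in males and 4 to 11 in females, with 7 in diestrus library 3 and 11 in proestrus library 2. A female-only locus lay in 1 of them, Mbp, the gene for myelin basic protein. Their part in the female-only loci was not tested.

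The share of the 2 sets varied between chromosomes. Male-only loci made up 2.65% of loci on chromosome 3 and 0.572% on chromosome 7. Female-only loci made up 1.41% on chromosome 15 and 0.0591% (3 loci) on chromosome 7.

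Measures over the whole set of kept peaks were then compared between libraries, which are the replicates. An AP-1 motif was held by 9.55 and 8.96% of peaks in males, 12.6, 12.3 and 10.8% in diestrus and 12.7, 10.2 and 11.8% in proestrus. Both males lay below all 6 females, with a mean difference of -2.49 percentage points (two-sided exact permutation test, p = 0.0714, the smallest this design allows; 0.0952 adjusted over 4 measures). The difference shrank to -0.759 points with all deposited peaks and to -1.54 points at a −log10 q of at least 5, where males and females overlapped (exact permutation test, p = 0.214 and 0.143). It was -1.75 points among peaks of 40 to 50% summit GC (exact permutation test, p = 0.214). In controls the order was opposite: 10.3 to 10.4% in males and 8.86 to 10.2% in females, a difference of 0.962 points (exact p = 0.0238, adjusted 0.0476). The sign thus differed between treatments. After cocaine minus in controls, the difference was -3.45 points, with sex labels permuted within treatments (exact permutation test over 2352 assignments, p = 0.000425, the smallest these allow, adjusted 0.00170). That p assumes no sex difference in either treatment, so a difference in a single treatment can make it small. It does not test the change itself, and the same holds for the measures below. This change between treatments was computed only at the main rank limit.

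The share of peaks at promoters moved in the other direction. It was 19.03 and 19.4% in cocaine males and 17.8 to 18.9% in cocaine females, a difference of 0.848 points (exact p = 0.0714, adjusted 0.0952; 4.59 points with all deposited peaks and 5.70 points at a −log10 q of at least 5), and -0.653 points in controls (exact p = 0.0238, adjusted 0.0476). The change between treatments was 1.501 points (exact permutation test, p = 0.00128, adjusted 0.00255). Median peak width was 417.5 ± 30.4 bp in cocaine males (SD, n = 2) and 591 ± 55.7 bp in cocaine females (n = 6), a difference of -173.5 bp (exact p = 0.0714, adjusted 0.0952), which was -26 bp with all deposited peaks and -89.75 bp at a −log10 q of at least 5. In controls it was 622 ± 38.0 bp in males (n = 3) and 597 ± 38.1 bp in females (n = 6), which overlapped (exact p = 0.286, adjusted 0.333), and the change between treatments was -198 bp (exact permutation test, p = 0.00510, adjusted 0.00680). Mean GC content of the kept peaks was 46.4 and 45.7% in cocaine males and 45.9 to 47.4% in cocaine females, and the groups overlapped (exact p = 0.286). In females, the mean motif share was 9.36% in controls and 11.7% after cocaine, with mean widths of 597 and 591 bp. In males the share was 10.3 and 9.26%, with widths of 622 and 417.5 bp. The part of width in the motif share was not tested.

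**Figure D4:**
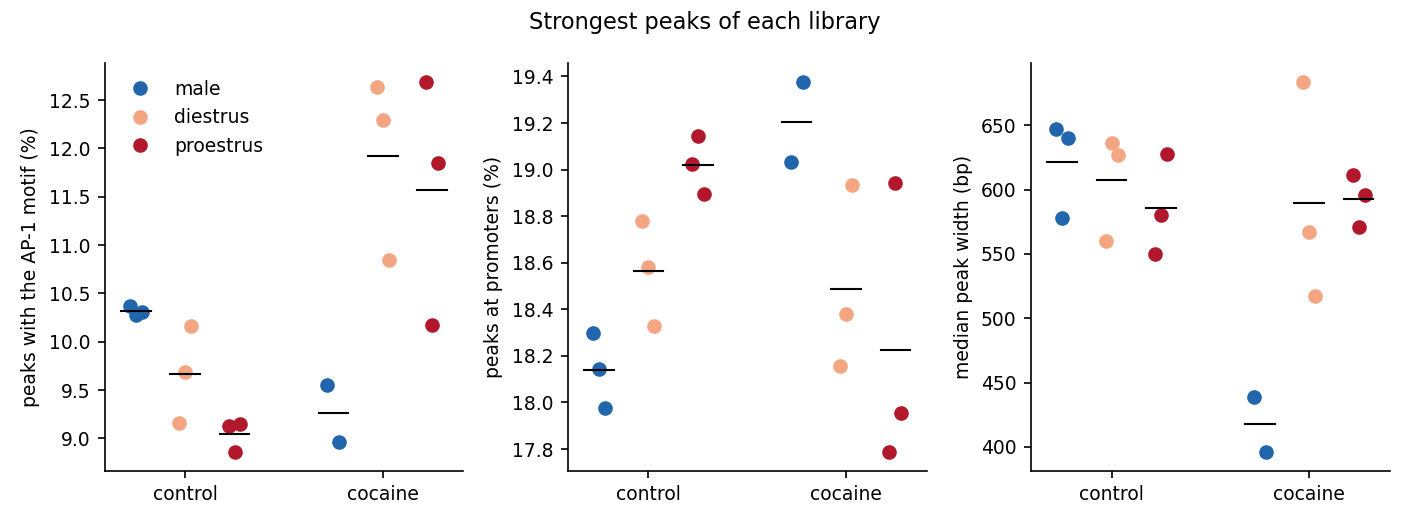
Percentage of kept peaks with the AP-1 motif, percentage at promoters and median peak width (bp) in each library, by treatment and by sex or stage, with a line at each group mean. After cocaine both males lie below every female for AP-1 share and width and above every female for promoter share, while in controls the males lie above the females for AP-1 share and below them for promoter share.

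Loci called in all 8 libraries were not chosen for a difference, so the strength of their peaks could be tested. Strength was the fold enrichment of the strongest peak of each library in the locus, log2 transformed and quantile normalized, so that a difference is relative to the other shared loci of the same library. In limma, with males against the mean of diestrus and proestrus, 6 of 36255 loci (0.0165%) were stronger in males and 1 (0.00276%) was weaker at an adjusted p of 0.05. At an unadjusted p under 0.05 there were 2913 and 3319. These counts moved when a library was left out. Without either male library they were 0 and 0, in a fit where the lone male pool is assumed to vary like the female groups (1211 and 1664 unadjusted without male library 1, 1113 and 1564 without male library 2). They were 467 and 622 without diestrus library 1, 22 and 4 without diestrus library 3, and 867 and 1203 without proestrus library 2, and 4 or 5 and 0 without any of the other 3 female libraries. With −log10 p in place of the fold enrichment 0 loci passed in either direction (2639 and 3275 unadjusted).

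Of the 6 loci stronger in males, 4 were copies of a repeat. The strongest call was chr11:34542851-34545144, in an intron of Dock2, a guanine nucleotide exchange factor of immune cells. Its fold enrichments were 46.4 and 48.8 in males, 13.7, 12.1 and 17.1 in diestrus and 12.3, 11.9 and 13.6 in proestrus. The log2 difference was 1.93 ± 0.22 (SE; limma, adjusted p = 0.00134). A second Dock2 intron locus, chr11:34681541-34683487, had 77.9 and 82.3 in males, 23.9, 19.9 and 34.5 in diestrus and 28.3, 22.5 and 26.9 in proestrus (1.67 ± 0.25, limma adjusted p = 0.0158). The intergenic loci chr11:114973327-114973706 and chr10:124544962-124545423, whose sequences are shown above, had 19.1 and 17.7 and 17.6 and 17.7 in males, and 4.91 to 8.84 and 4.28 to 7.93 in females. Their log2 differences were 1.76 and 1.69 (limma, adjusted p = 0.0111 for both). Each of these 4 loci was similar in sequence to the other 3 (at least 80% identity over at least 100 bp by blastn) and to no other shared locus. Over all 127891 loci 8 belonged to this family, and 2 of them were male-only, near Grm8 and Hapln1, and called in 1 and 2 female controls and no male control. In controls the Dock2 loci went the other way, by -1.13 and -1.21 on the log2 scale (limma, adjusted p = 4.9e-05 and 2.9e-05). Reads that fit several copies can be placed in any of them, and how these reads were counted is not given in the sources used here.

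The remaining calls were single loci. An intron locus of Cadm1, a synaptic cell adhesion gene, had 8.42 and 9.42 in males and 4.25 to 6.29 in females (1.05 ± 0.16, limma adjusted p = 0.0152). An intron locus of Cdh22, a cadherin gene, had 7.76 and 7.44 in males and 3.33 to 6.89 in females (1.09 ± 0.17, limma adjusted p = 0.0215). The locus weaker in males was intergenic, chr6:16283389-16284533, with 5.03 and 5.35 in males, 14.1, 17.2 and 12.4 in diestrus and 10.8, 9.84 and 11.8 in proestrus (-1.03 ± 0.17, limma adjusted p = 0.0470). It was also lower in control males, by -0.74 (limma, adjusted p = 0.000144). The male and female values did not overlap at any of the 7 loci.

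**Figure D5:**
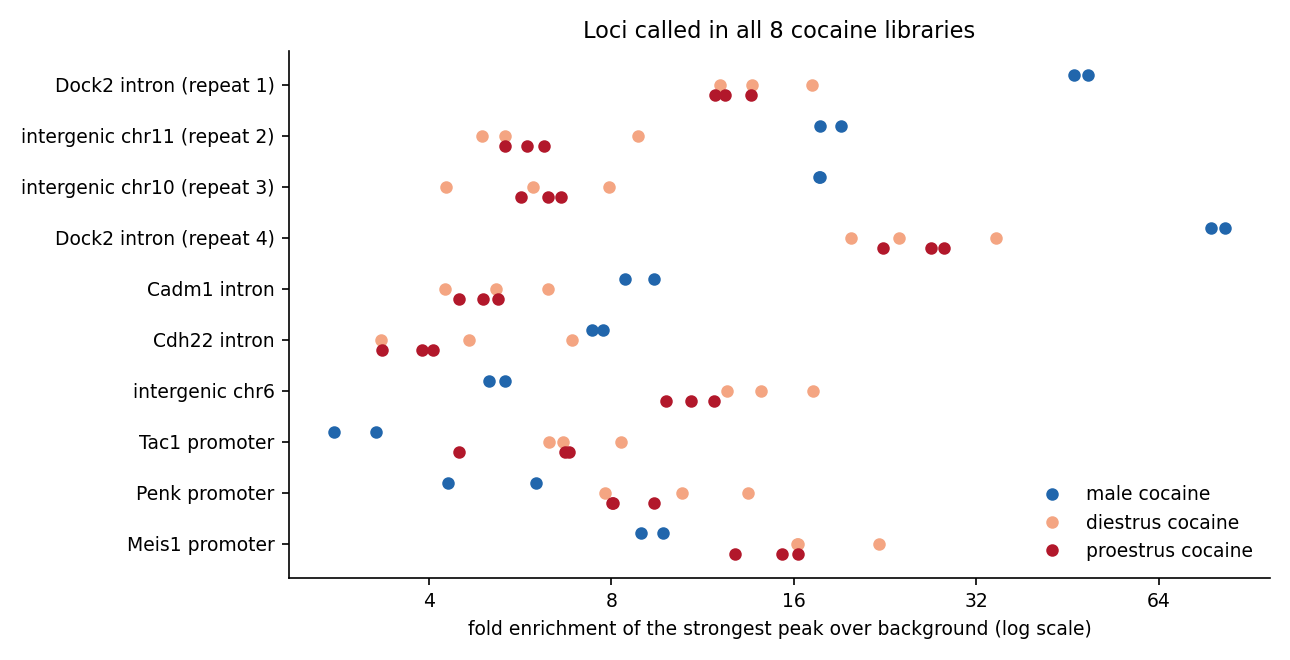
Fold enrichment of the strongest peak (log scale) in each cocaine library at loci called in all 8 libraries, with 1 point per library coloured by group. The 4 repeat copies are at the top with males at 17.6 to 82.3 and females at 4.28 to 34.5, and the promoters of Tac1, Penk and Meis1, which did not pass the test, are at the bottom.

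Of 11139 shared loci at promoters, 0 passed limma's adjusted threshold (1240 higher and 264 lower in males unadjusted). Those with the smallest p and higher values in males were the promoters of Hapln4, Fnip1, Glt1d1 with Slc15a4, Hs3st4, Zfp976, Ank1, Cacna1b and Rph3a (log2 differences of 0.79 to 1.08, limma adjusted p of 0.0560 to 0.0625). Hapln4 belongs to the perineuronal net, Cacna1b is the N-type calcium channel of nerve terminals, and Rph3a acts on synaptic vesicles. The converse promoters were those of 1700019D03Rik, Tac1, Cdh9, 3110070M22Rik with Tmem267, Penk, Meis1, Fam135a and Mef2c (limma adjusted p of 0.0625 to 0.113). Tac1 encodes substance P of direct-pathway medium spiny neurons, and its promoter had fold enrichments of 3.28 and 2.79 in males, 6.65, 8.30 and 6.32 in diestrus and 6.81, 4.49 and 6.70 in proestrus. Its log2 difference was -0.85 ± 0.19 (limma, adjusted p = 0.0675). Penk encodes enkephalin of indirect-pathway neurons, and its promoter had 6.01 and 4.30 in males, 10.4, 13.5 and 7.81 in diestrus and 9.41, 8.02 and 8.06 in proestrus (-0.63 ± 0.17, limma adjusted p = 0.105). At both promoters the males lay below every female, and neither difference passed the threshold.

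Small differences went together with sequence and position. The median log2 difference was 0.00 over all 36255 shared loci, -0.14 over the 4491 with an AP-1 motif and 0.09 over the 11139 at promoters. Of AP-1 loci 31.2% were higher in males, and of all shared loci 50.7%. GC content moved with this: the median was -0.16 over loci under 40% GC and 0.10 over loci of 60% or more. Among AP-1 loci the median was -0.28 under 40% GC, -0.17 between 40 and 50% and 0.04 at 60% or more, where all shared loci of the same GC content had -0.16, -0.06 and 0.10. No locus of any gene list passed limma's adjusted threshold, and counts at an unadjusted p under 0.05 stand beside 9.15% lower and 8.03% higher in males over all shared loci. Of 108 loci in medium spiny neuron genes 23 were lower and 0 higher, and the median over their promoters was -0.25. Immediate-early genes had 3 lower and 0 higher of 45, dopamine signalling genes 7 and 0 of 58, axon guidance and adhesion genes 61 and 20 of 439, ion channel genes 39 and 25 of 385, and glutamate receptor genes 19 and 12 of 185. Genes of estrogen and related signalling had 3 lower and 6 higher of 47, regulators of X inactivation and chromatin 3 and 6 of 82, stress hormone genes 2 and 3 of 17, and GABA genes 9 and 6 of 75.

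Finally, to ask whether the difference between the sexes itself differed between cocaine and control mice, both contrasts were fitted over the 30144 loci called in all 17 libraries. In controls 4898 loci (16.2%) were stronger and 4902 (16.3%) weaker in males than in females (limma, adjusted p under 0.05). After cocaine, with 2 male pools, 10 were stronger and 28 weaker on the same loci (2501 and 2875 at an unadjusted p under 0.05). The male-female difference was higher after cocaine than in controls at 2696 loci (8.94%) and lower at 2750 (9.12%). Distal AP-1 loci leaned to one side, with 15.6% lower and 4.89% higher, and promoters to the other, with 6.75% lower and 9.76% higher. The 2 Dock2 loci were among the higher ones, with differences of 3.09 and 2.99 (limma, adjusted p = 5.2e-06 and 3.1e-05).

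Several genes of known roles in this tissue had promoters among them. The promoter of Drd2, the dopamine receptor of indirect-pathway neurons, had a male-female log2 difference of 0.38 after cocaine and -0.61 in controls, and these differed by 0.99 ± 0.21 (limma, adjusted p = 0.00411). Slc32a1, the vesicular GABA transporter, had 0.06 and -0.88, a difference of 0.95 ± 0.17 (limma, adjusted p = 0.00165). Penk had -0.63 and 0.00, a difference of -0.63 ± 0.18 (limma, adjusted p = 0.0227). Of 46 loci in immediate-early genes, the male-female difference was higher after cocaine at 3 and lower at 6. These counts stand beside 8.94% higher and 9.12% lower over all loci tested, and the list as a set was not tested. The immediate-early loci that passed included the promoters of Klf2 and of Bdnf, the neurotrophin gene. The male-female differences of these promoters each changed by -0.96 between controls and cocaine (limma, adjusted p = 0.00450 and 0.00939). A Maff locus changed by 0.79 (limma, adjusted p = 0.0251). The Bdnf difference was 0.28 after cocaine and 1.24 in controls.

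By p-value, the leading promoters with a higher difference after cocaine were Litaf (2.15), Oasl1 (2.08), Gm10717 (1.81), Coil with Elobl (1.20), Taco1 (1.45), Dnah2 (1.13), Eid2 (1.02) and Slc32a1 (0.95). The first 2 are known from innate immune responses. The leading promoters with a lower difference were Msl3l2 (-1.47), Vxn (-1.26), Xpo1 (-1.19), Mcm3 (-1.17), Mybl1 (-1.10), Ripk2 (-0.94), Rps14 (-0.90) and Myo10 (-0.89). Xpo1 exports proteins from the nucleus and Mcm3 belongs to the replication helicase. Limma adjusted p-values of these 16 lay between 0.000292 and 0.00245. The male-female log2 difference of Oasl1 was 0.79 after cocaine and -1.29 in controls. Gm10717 has near-identical neighbours and is uncertain. No list of blacklisted repeat regions was applied here, so repeat-rich promoters were kept.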

How the data were processed

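ATAC-seq libraries of sorted accumbal neuronal nuclei were analysed from the peak lists that the authors deposited, 1 per library. Per the study's methods, the authors trimmed adapters, aligned reads to mm10 with BWA-MEM and called peaks in each library with MACS2; tool versions are not given in the sources used here. Each deposited peak has a fold enrichment (a ratio of pileup to local background), a −log10 p and −log10 q, and an integer score, all computed by the authors' caller and not normalized between libraries. The score, and the authors' featureCounts and DESeq2 analysis, were not used. The read numbers that the study lists per library were not used here, and relative depth was read as the background pileup from steps in the fold enrichment.

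Here an equal number of peaks per library was taken by −log10 p on chromosomes 1 to 19 and X, ties at the limit in a seeded random order, and autosomal peaks overlapping by at least 1 bp were merged. GENCODE release 21 protein-coding genes gave promoters (within 1000 bp of a start site). Motifs and GC content were read from GRCm38 within 100 bp of the summit. No blacklist was applied. Results for some list members are not reported here. Groups came from titles and stage labels, and the members and lists were chosen with earlier results of these data known.

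Peak strength was tested with limma 3.58.1 (R 4.3.3), with Benjamini-Hochberg adjustment, and library measures with two-sided exact permutation tests (scipy 1.17.1, Python 3.11.15). Loci were compared by blastn 2.17.0. Scripts were tested on simulated data. Named loci, promoters and genes were those highest by rank in their weakest library, by number of loci, or by p-value. Rank limits, q limits, peak merging, promoter windows, scalings, a replicate block and leaving out each library were tried as alternatives.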

Additional observations from a re-analysis of the deposited data

Results flagged for a closer look

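The difference between males and females had a different size or sign after cocaine and in controls for 3 measures of the kept peaks. Sex was permuted within treatments, which assumes no sex difference in either one. A difference in a single treatment can make these p-values small, so they do not test the change itself. The change was -3.45 percentage points for the share with the AP-1 motif (exact permutation test, p = 0.000425, the smallest it allows, adjusted 0.00170), 1.501 points for the share at promoters (p = 0.00128, adjusted 0.00255) and -198 bp for the median width (p = 0.00510, adjusted 0.00680). These changes were computed only at the main rank limit. The cocaine males also had the fewest deposited peaks of all groups, and the part of this in the changes was not tested.

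Among loci called in all 17 libraries, the male-female difference in peak strength was higher after cocaine at 2696 and lower at 2750 (limma, adjusted p under 0.05).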

How the results depend on the processing

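With 2 male pools, counts of loci called on a single side depended on each library and on the rank limit, and missing calls limit what any count shows. The 50000 strongest peaks gave 638 male-only and 696 female-only loci, control differences of 1.25 and -14.0 points and a GC difference of 0.984 points. All deposited peaks gave 4448 female-only loci, 13 male-only and 69 female-only promoters, a female-only control difference of 4.14 points and a GC difference of 0.0895. A −log10 q of at least 5 gave 330 and 2484 loci, 4 and 57 promoters, control differences of 12.02 and 9.56 points and a GC difference of 1.61. With all deposited peaks and at that q limit, the AP-1 difference was -0.759 and -1.54 points, the promoter share 4.59 and 5.70 points and the width -26 and -89.75 bp. The AP-1 difference was -1.52 points with the motif within 50 bp and -1.75 points at 40 to 50% GC. The cause of these changes was not tested. Summit windows of 250 bp left 13 female-only promoters, a 3 kb promoter window gave 39 male-only ones, and gene 5′ ends alone gave 13. Alternatives chosen after seeing the data left 1235 male-only loci without any female peak and 12 female-only promoters in loci without a male call.

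In limma, the counts stronger and weaker in males were 95 and 134 with median centring, 42 and 21 with GC correction, 37 and 73 with a 2-group model, 19 and 49 with all deposited peaks, 5340 and 5396 with array weights, and 0 and 0 with −log10 p (2639 and 3275 at an unadjusted p under 0.05).

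Leaving out each library in turn gave 2046 to 10943 male-only and 1285 to 3029 female-only loci, 20 to 66 and 26 to 64 promoters, and control differences of 1.41 to 4.45 and -9.91 to -0.952 points. GC differences ran from -1.02 to -0.246, AP-1 from -2.80 to -2.19 and promoter share from 0.675 to 1.02 points, widths from -195 to -152 bp, and limma counts from 0 to 867 and 0 to 1203.

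Samples of the same number did not deviate together (correlations of -0.0424 to -0.00106), so the numbers gave no pairing. With the replicate block over numbers 1 and 2 there were 2316 and 1876 loci, 23 and 38 promoters and limma counts of 37 and 18. The block gave differences of -0.838 (GC), -2.69 (AP-1) and 0.890 points (promoters), -191 bp (width), and 3.20 and -8.68 points in controls.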

Other observations

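Among genes of the fixed lists, loci in gene bodies also differed between cocaine and control mice in their male-female log2 difference. A Gphn locus, in the gene of the inhibitory postsynaptic scaffold gephyrin, had 0.25 after cocaine and -1.22 in controls, a difference of 1.47 ± 0.27 (limma, adjusted p = 0.00203). Loci in Lrrc4c, a synaptic adhesion gene, and Cacna2d1, a calcium channel subunit gene, both with an AP-1 motif, had differences of -1.16 and -1.06 (limma, adjusted p = 0.000387 and 0.00181). Of dopamine signalling genes, 9 of 47 loci were higher and 1 lower, and of axon guidance and adhesion genes 16 of 347 were higher and 31 lower, beside 8.94% and 9.12% of all loci tested.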
